A study of Mus musculus with 8 samples.

Results

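A set of genes in the ATF4 response to amino acid shortage and related stress was followed in mouse undifferentiated pleomorphic sarcomas (UPS), a soft tissue tumour without a defined line of differentiation, that kept or lost HIF-2α. The genes were chosen by symbol, namely Atf4, Atf5, Ddit3, Trib3, Chac1, Asns, Psat1, Phgdh, Slc7a11 and Slc7a5, and all 10 were found among the 26667 genes of the deposited count table. KP tumours, labelled wild type for Epas1, carried homozygous floxed Trp53 beside a further engineered allele that both groups share. KPH2 tumours carried the same alleles and homozygous floxed Epas1, the gene that encodes HIF-2α, and are labelled Epas1 -/-. All mice were on a mixed 129/C57BL/6 background, males and females of at least 8 weeks, and tumours were started with a Cre-expressing adenovirus (Ad-Cre) injected into hind limb muscle. They were collected 7 weeks later or at the largest size permitted. The virus does not restrict Cre to one cell type, and cells of the host that were not infected keep Epas1. RNA came from formalin-fixed, paraffin-embedded sections, so the libraries can hold tumour, stroma and adjacent muscle together. In such bulk RNA, fewer cells of a type and less RNA per cell cannot be told apart.

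One library was sequenced from each of 4 KP tumours (KP 5 to KP 8) and 4 KPH2 tumours (KPH2 1 to KPH2 4), with 6463221 to 13155510 counts per library. In the study 1 knockout tumour was set aside as an outlier for technical reasons, and KPH2 1 is the tumour that the smaller deposited table, of 7 tumours, does not hold, so groups were compared over the other 7 tumours and KPH2 1 is shown apart. The study does not give the same group sizes throughout its text, so that KPH2 1 was the tumour set aside is read from the table. Levels are counts per 1e+06 counts of the scaled library (CPM). Epas1, counted over the whole gene and not the floxed part alone, gave 59.2, 83.2, 86.9 and 84.1 CPM across KP 5, 6, 7 and 8, then 53.4, 37.7 and 42.5 CPM across KPH2 2, 3 and 4, with 32.6 CPM for KPH2 1. Every KPH2 tumour was below every KP tumour, and over the 7 tumours this was a log2 fold change of −0.81 ± 0.19 (SE, adjusted p = 0.0742 by the quasi-likelihood test of edgeR). All 10 mesenchymal marker genes, such as Vim and Col1a1, were measured in these sections and summed to at least 18290 CPM in each tumour.

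ATF4 is a basic leucine zipper transcription factor whose mRNA is translated more when eIF2α is phosphorylated by one of several kinases, which sense amino acid shortage, misfolded proteins in the endoplasmic reticulum (ER), haem shortage or double-stranded RNA. It then raises transcription of genes for amino acid synthesis and uptake, tRNA charging and redox balance, and of factors that can end in cell death when stress lasts. Because control of ATF4 lies largely in translation, the mRNA of its target genes is commonly read as the measure of the response in tumours. ATF4 binds composite sites with C/EBP family partners, known as C/EBP-ATF response elements, in the control regions of many of these genes.

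The composite element was searched for as TGATGNAA on both strands in RefSeq promoter windows of GRCm38.p6 that run from 250 bases before to 50 bases after each transcription start. Windows were found for 9 of the 10 genes, all except Slc7a5. Of these 9, Trib3, Chac1, Asns and Slc7a11 held a match (4 of 9, 44.4%), beside 4.51% of the 27025 genes in the table and 3.97% of its 32851 windows. Most of the genes are known ATF4 targets, so this share describes the list and is not evidence from the tumours. The stretches around the 3 promoters with a match before the start are shown because Chac1, Asns and Slc7a11 were among the genes that varied most between tumours. Capitals mark the element, which stands on the other strand where it reads TTNCATCA, and each sequence is written in the direction of transcription.
Chac1, chr2:119351023-119351082, plus strand: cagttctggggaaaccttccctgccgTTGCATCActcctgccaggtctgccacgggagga
Asns, chr6:7693210-7693258, minus strand: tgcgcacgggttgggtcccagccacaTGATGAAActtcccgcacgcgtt
Slc7a11, chr3:50443646-50443705, minus strand: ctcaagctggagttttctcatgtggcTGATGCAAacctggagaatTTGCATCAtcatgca
The first base of the match lay at −193 in Chac1 and −23 in Asns, counted from the start. Slc7a11 held the element in both orientations, at −66 and −47. In Trib3 the match began at +15, inside the transcript. No match in the windows of Atf4, Atf5, Ddit3, Psat1 and Phgdh says only that these letters are not there.

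None of the 10 genes differed between KPH2 and KP tumours beyond the spread between tumours. After Benjamini-Hochberg adjustment of the edgeR quasi-likelihood p-values over all genes, 0 of the 10 had an adjusted p under 0.05, where 292 of 14867 tested genes (1.96%) did, 1.24% higher and 0.72% lower in KPH2 tumours. Without adjustment 0 of the 10 had a p under 0.05, against 17.8% of all tested genes. DESeq2 and limma on the deposited rlog values likewise gave 0 of 10 with and without adjustment, where DESeq2 called 7.95% of all genes (18.5% unadjusted) and limma 2.27% (17.6% unadjusted). The groups overlapped for each of the 10 genes, while 16.9% of all tested genes had groups that did not overlap (8.15% with KPH2 1, again 0 of the 10). Of the 10 log2 fold changes 2 were positive and 8 negative, with a median of −0.18, beside −0.02 over all tested genes. With KPH2 1 included 6 were positive and 4 negative, with a median of 0.02, beside 0.01 over all tested genes. The 95% intervals of the ratios were wide, so the data do not show that the levels were alike.

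**Figure D1:**
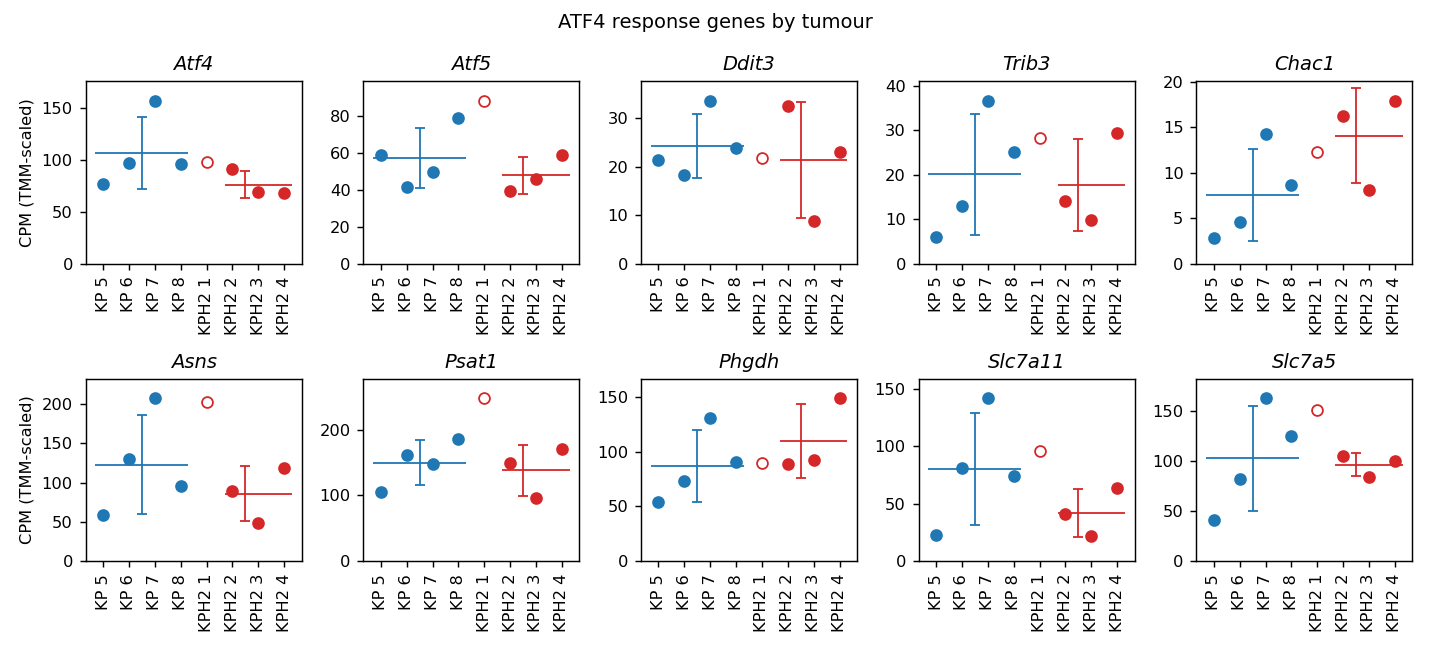
CPM of each gene (vertical axes from 0, TMM-scaled) in each of the 8 tumours (horizontal axes). Blue points are KP and filled red points KPH2 2 to KPH2 4, with lines for the group means and bars for 1 SD, and the open point is KPH2 1, which enters neither mean. The groups overlap for every gene, and KP 7 is the highest tumour for 6 of the 10.

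Among the transcription factors, Atf4 (Entrez Gene 11911, chromosome 15, 80255184 to 80257545 of GRCm38.p6) gave 77.2, 97.3, 157 and 96.1 CPM across KP 5, 6, 7 and 8, then 91.0, 68.7 and 68.3 CPM across KPH2 2, 3 and 4, with 97.7 CPM for KPH2 1. KP 7 stood well above the rest, and KPH2 3 and KPH2 4 were the lowest, although KPH2 2 lay above KP 5. Means were 107 ± 34.8 CPM for KP (SD, n = 4) against 76.0 ± 13.0 CPM for KPH2 2 to KPH2 4 (SD, n = 3), a log2 fold change of −0.49 ± 0.25 (SE, edgeR adjusted p = 0.352). Its unadjusted p of 0.0835 was the smallest of the 10 in that edgeR fit over all genes.

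Atf5 (Entrez Gene 107503, chromosome 7, 44812256 to 44816658), a related factor that is itself under ATF4 and eIF2α control and is tied to the mitochondrial stress response, had an order of tumours unlike that of most of the list. It gave 58.8, 41.3, 49.7 and 79.0 CPM across KP 5, 6, 7 and 8, then 39.2, 45.8 and 58.7 CPM across KPH2 2, 3 and 4, with 88.5 CPM for KPH2 1. The highest KP tumour was KP 8 rather than KP 7, and KPH2 1 was above every other tumour. For Atf5 the log2 ratio of KPH2 to KP was −0.26 ± 0.25 (SE, edgeR adjusted p = 0.637), and it was −0.07 without KP 8 and −0.43 without KPH2 4.

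Ddit3 (Entrez Gene 13198, chromosome 10, 127290793 to 127296291) encodes CHOP, an ATF4-induced factor that promotes cell death under lasting ER stress. It gave 21.4, 18.4, 33.7 and 23.8 CPM across KP 5, 6, 7 and 8, then 32.5, 8.81 and 23.0 CPM across KPH2 2, 3 and 4, with 21.9 CPM for KPH2 1. The low level in KPH2 3 stood apart, while KPH2 2 and KP 7 were close to each other at the top. For Ddit3 the log2 ratio of KPH2 to KP was −0.18 ± 0.41 (SE, edgeR adjusted p = 0.868).

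Trib3 (Entrez Gene 228775, chromosome 2, 152337425 to 152344060) encodes a pseudokinase that is induced by ATF4 and CHOP and feeds back on both. It gave 5.87, 12.9, 36.6 and 25.0 CPM across KP 5, 6, 7 and 8, then 14.0, 9.71 and 29.4 CPM across KPH2 2, 3 and 4, with 28.1 CPM for KPH2 1. The highest KP tumour held 6.24 times the lowest, and the KPH2 values fell inside the KP range. For Trib3 the log2 ratio of KPH2 to KP was −0.18 ± 0.61 (SE, edgeR adjusted p = 0.919), and the 95% interval of the ratio of KPH2 to KP ran from 0.296 to 2.64.

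Chac1 (Entrez Gene 69065, chromosome 2, 119351242 to 119354326) encodes an enzyme that degrades glutathione and is among the genes that respond most to ATF4. It gave 2.82, 4.53, 14.2 and 8.68 CPM across KP 5, 6, 7 and 8, then 16.2, 8.11 and 17.9 CPM across KPH2 2, 3 and 4, with 12.3 CPM for KPH2 1. KPH2 2 and KPH2 4 exceeded every KP tumour, and KPH2 3 lay below KP 7 and KP 8. Means were 7.56 ± 5.08 CPM for KP (SD, n = 4) against 14.1 ± 5.24 CPM for KPH2 2 to KPH2 4 (SD, n = 3), the largest positive log2 fold change of the 10 at 0.91 ± 0.53 (SE, edgeR adjusted p = 0.431). The 95% interval of the ratio ran from 0.723 to 4.86.

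Of the enzymes of amino acid synthesis, Asns (Entrez Gene 27053, chromosome 6, 7675165 to 7693209), which makes asparagine and is a classical read-out of amino acid shortage, gave 59.2, 129.9, 208 and 96.2 CPM across KP 5, 6, 7 and 8. It stood at 90.1, 49.1 and 119 CPM in KPH2 2, 3 and 4 and at 203 CPM in KPH2 1. KP 7 and KPH2 1 were far above the others, 1 tumour from each genotype, and KPH2 3 and KP 5 were the lowest, again 1 from each. For Asns the log2 ratio of KPH2 to KP was −0.52 ± 0.44 (SE, edgeR adjusted p = 0.599) over the 7 tumours and −0.09 ± 0.47 (SE, edgeR adjusted p = 0.952) with KPH2 1.

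Phgdh (Entrez Gene 236539, chromosome 3, 98313171 to 98339969) and Psat1 (Entrez Gene 107272, chromosome 19, 15905123 to 15925059) encode the first and the second enzyme of serine synthesis from a glycolytic intermediate. Phgdh gave 54.1, 72.9, 131 and 90.3 CPM across KP 5, 6, 7 and 8, then 88.8, 92.2 and 149 CPM across KPH2 2, 3 and 4, with 89.4 CPM for KPH2 1. KPH2 4 was the highest tumour, and the other 3 KPH2 tumours lay close together near KP 8. Psat1 gave 104.6, 161, 147 and 186 CPM across KP 5, 6, 7 and 8, then 149, 95.6 and 170.4 CPM across KPH2 2, 3 and 4, with 247 CPM for KPH2 1, the highest of all. The log2 fold changes were 0.34 ± 0.31 (SE, edgeR adjusted p = 0.632) for Phgdh and −0.11 ± 0.25 (SE, edgeR adjusted p = 0.865) for Psat1. For Psat1 the 95% interval of the ratio ran from 0.593 to 1.44, and for Phgdh from 0.723 to 2.20.

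The pair of transporters share a heavy chain partner at the cell surface, encoded by Slc3a2. Slc7a11 (Entrez Gene 26570, chromosome 3, 50364936 to 50499087) encodes the cystine-glutamate exchanger xCT, which supplies cysteine for glutathione and is also a target of the oxidative stress factor NRF2. It gave 22.7, 81.1, 142 and 74.6 CPM across KP 5, 6, 7 and 8, then 41.6, 21.8 and 63.5 CPM across KPH2 2, 3 and 4, with 96.1 CPM for KPH2 1. The levels of KP 5 and KPH2 3 were nearly equal at the bottom, and the other 3 KP tumours were above each of KPH2 2 to KPH2 4. Means were 80.1 ± 48.8 CPM for KP (SD, n = 4) against 42.3 ± 20.8 CPM for KPH2 2 to KPH2 4 (SD, n = 3), the most negative log2 fold change of the 10 at −0.92 ± 0.58 (SE, edgeR adjusted p = 0.463). The 95% interval of the ratio ran from 0.189 to 1.48. With 1 tumour left out the log2 fold change was −1.22 ± 0.42 without KP 5 (SE, edgeR unadjusted p = 0.0214 and adjusted p = 0.171), −0.49 ± 0.54 without KP 7 (SE, edgeR unadjusted p = 0.392) and −0.61 ± 0.62 without KPH2 3 (SE, edgeR unadjusted p = 0.360).

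Slc7a5 (Entrez Gene 20539, chromosome 8, 121881146 to 121907686) encodes LAT1, which brings leucine and other large neutral amino acids into the cell. It gave 41.5, 82.5, 163 and 125 CPM across KP 5, 6, 7 and 8, then 105, 83.7 and 100.5 CPM across KPH2 2, 3 and 4, with 150.5 CPM for KPH2 1. KPH2 2 to KPH2 4 lay close together inside a KP range of 3.92-fold, and KPH2 1 was near the highest KP tumour. For Slc7a5 the log2 ratio of KPH2 to KP was −0.09 ± 0.40 (SE, edgeR adjusted p = 0.935).

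**Figure D2:**
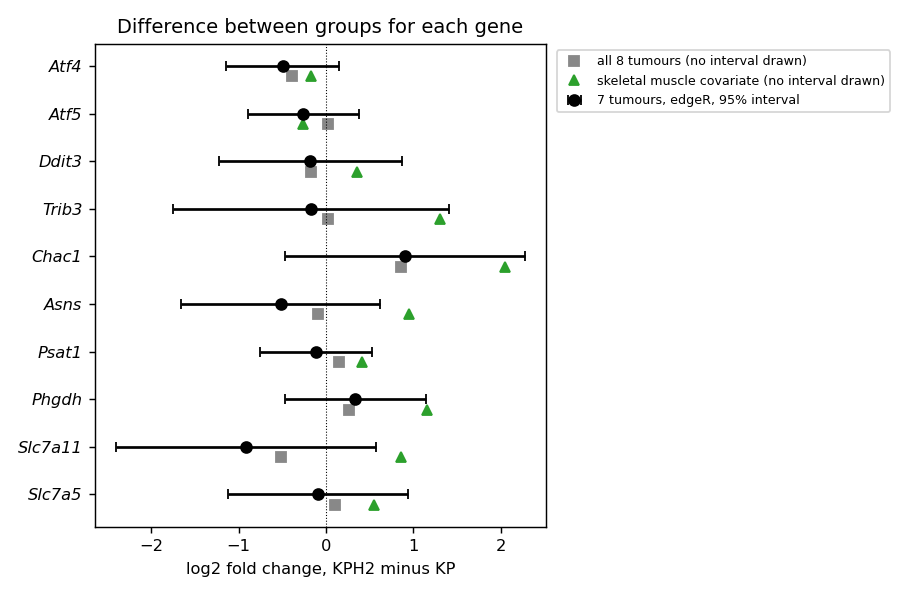
Log2 fold change of KPH2 over KP tumours (horizontal axis) for the 10 genes (vertical axis), with black points and 95% intervals for the 7 tumours. Grey squares give the fit with KPH2 1 and green triangles the fit with the skeletal muscle marker level as a covariate, both drawn without intervals. Every black interval includes 0, and the triangles of Trib3, Asns, Psat1, Ddit3, Slc7a11 and Slc7a5 lie on the other side of 0 from the black points.

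Set per length, the mean levels over KP tumours fell into an upper and a lower set. Their order depends on the lengths used, which was 9223 bases for Slc7a11. CPM per 1000 bases of the longest GENCODE transcript paired with a RefSeq mRNA were 62.0 for Atf4, 61.6 for Asns, 57.1 for Psat1, 46.0 for Phgdh, 33.0 for Atf5, 29.3 for Slc7a5 and 27.3 for Ddit3. Trib3, Slc7a11 and Chac1 followed at 9.91, 8.68 and 4.62 in the same unit. Neighbours in this order differed by less than the larger of their SDs between KP tumours, except Ddit3 and Trib3, whose gap was 2.34 times that SD. In KPH2 2 to KPH2 4 Phgdh had the highest mean of the 10 on this scale, 58.0, and Slc7a11 the lowest, 4.59.

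Several of the genes differed by severalfold between tumours of the same genotype. KP 7 held more than KP 5 for 9 of the 10 genes, all but Atf5, with ratios of 6.20 for Slc7a11, 6.07 for Trib3, 4.78 for Chac1, 3.90 for Slc7a5 and 3.50 for Asns. The median log2 ratio over the 10 genes was 1.54, beside −0.01 over all tested genes. KPH2 4 held more than KPH2 3 for 9 of the 10 as well, all but Atf4, with a median log2 ratio of 0.98 beside 0.01 over all tested genes. These pairs were picked after the values were seen and describe 4 libraries, with no test. KP 5 was the lowest KP tumour for 8 of the 10 genes and KP 7 the highest for 8, while among KPH2 2 to KPH2 4, KPH2 3 was the lowest for 7 and KPH2 4 the highest for 7.

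**Figure D3:**
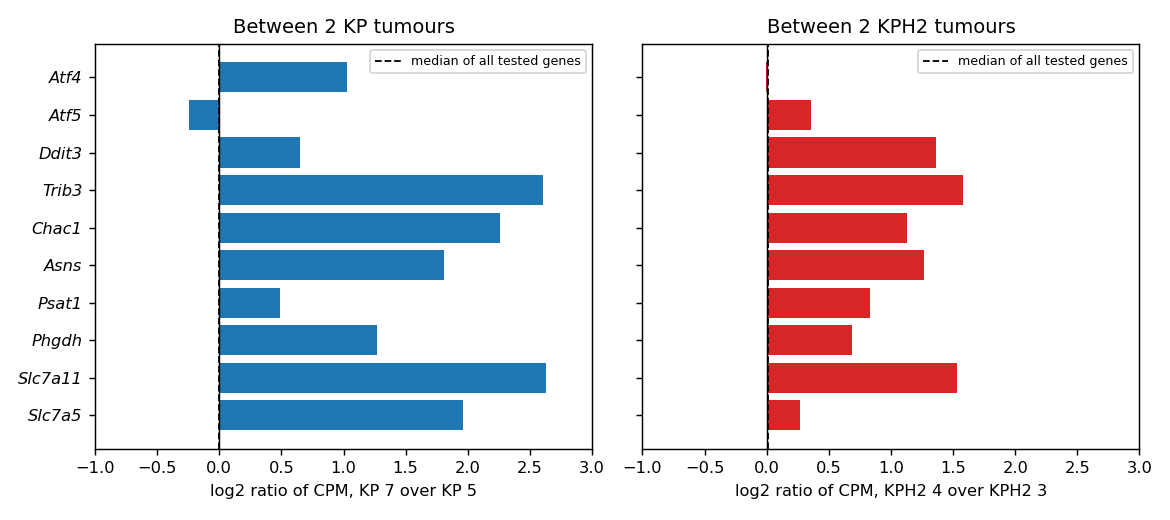
Log2 ratio of CPM between tumours of the same genotype (horizontal axes) for the 10 genes (vertical axis). Bars on the left give KP 7 over KP 5 and bars on the right KPH2 4 over KPH2 3, and dashed lines mark the median of all tested genes, −0.01 and 0.01. In each panel 9 of the 10 bars point to the right.

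This spread within groups is described by the biological coefficient of variation, the relative spread between tumours of one group beyond counting error. It was estimated for each gene in edgeR and is given as a description, not as the quantity used in the quasi-likelihood test. Its median was 0.380 over the 10 genes and 0.258 over all tested genes. Trib3 stood highest of the 10 at 0.553, above 93.3% of all tested genes, followed by Slc7a11 at 0.512 and Chac1 at 0.499. Atf4, Atf5 and Psat1 were just under the median of all genes at 0.255, 0.251 and 0.255.

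KPH2 1, left out of the comparison, held high levels for most of the genes. It was above each of KPH2 2 to KPH2 4 for 6 of the 10 and above every KP tumour for Atf5 and Psat1. The other 8 values lay inside the KP range. Adding KPH2 1 turned the log2 fold changes of Atf5, Trib3, Psat1 and Slc7a5 from negative to 0.02, 0.02, 0.15 and 0.10, and 0 of the 10 genes had an adjusted p under 0.05 in edgeR, where 1 of 14805 tested genes (0.00675%) did. Without adjustment 0 of the 10 had a p under 0.05 in that fit, against 14.7% of all tested genes.

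Skeletal muscle transcripts also differed between the tumours. The 20 muscle markers, among them Ckm, Acta1 and Ttn, summed to 1803 to 3300 CPM in KP tumours, with KP 5 the highest, and to 12290, 19160 and 4249 CPM in KPH2 2, 3 and 4, with 1487 CPM in KPH2 1. All 20 were higher in KPH2 2 to KPH2 4 by the fitted ratio, at a median log2 value of 2.22, and 2 of them, Eno3 and Neb, had an edgeR adjusted p under 0.05. DESeq2 called 16 of the 20 and limma 1, and all 20 had an unadjusted p under 0.05 by each of the 3 tools. Over all tested genes the shares in edgeR, DESeq2 and limma were 1.96%, 7.95% and 2.27% after adjustment and 17.8%, 18.5% and 17.6% before it. None of the 20 was at 0 in any tumour. In each group the tumour with the most muscle transcript, KP 5 or KPH2 3, was the one that was lowest for most of the 10 ATF4 response genes. With the mean log2 CPM of the muscle markers as a covariate, 8 of the 10 log2 fold changes were positive and 2 negative (Atf4 and Atf5), with a median of 0.70, beside −0.02 over all tested genes. In that edgeR fit Chac1 stood at 2.05 ± 0.83 (SE, unadjusted p = 0.0420, adjusted p = 0.572) and Phgdh at 1.15 ± 0.40 (SE, unadjusted p = 0.0222, adjusted p = 0.492). These were the 2 of 10 genes with an unadjusted p under 0.05, against 8.46% of all tested genes, and 0 of the 10 passed after adjustment, against 0.0202%. Muscle level and genotype moved together, so their parts in these values cannot be told apart.

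Around these 10 genes, 8 further lists were read, with 68 of their 70 genes tested. They cover the ATF4 pathway and, beside it, 15 genes of the other arms of the unfolded protein response and 7 targets of NRF2. In edgeR 0 of the 68 passed an adjusted p of 0.05, against 1.96% of all tested genes. At an unadjusted p under 0.05, 1 was higher and 9 were lower, a smaller share than the 17.8% of all tested genes. A negative log2 fold change over the 7 tumours, without KPH2 1, was found for 50 of the 68, beside 7724 of all 14867 tested genes. DESeq2 called 2 of them, Slc1a5 and Srxn1, and limma on rlog values called 0, where they called 7.95% and 2.27% of all genes. Slc1a5, a glutamine transporter, came nearest in edgeR. It gave 50.8, 75.3, 97.4 and 71.1 CPM across KP 5, 6, 7 and 8, against 36.6, 32.9 and 38.5 CPM across KPH2 2, 3 and 4, without overlap, but 160 CPM for KPH2 1, above every other tumour. The fitted log2 ratio of Slc1a5 was −1.03 ± 0.22 (SE), with an adjusted p of 0.0584 in edgeR and 0.00167 in DESeq2.

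Upstream of ATF4, the 7 genes for eIF2 kinases, eIF2α and its phosphatase subunits had a median log2 fold change of −0.05, from −0.38 for Eif2ak3, the kinase PERK of ER stress, to 0.31 for Eif2s1, which encodes eIF2α. None of the 7 had an unadjusted p under 0.05 in edgeR, DESeq2 or limma, where 17.8%, 18.5% and 17.6% of all tested genes did, so that 0 of 7 says little. Of the 5 bZIP partners and feedback factors, Atf3 stood at 0.02 and Nupr1 at −0.95 (adjusted p = 0.178 from edgeR). Nupr1, a stress-induced chromatin protein, was lower in each of KPH2 2 to KPH2 4 than in each KP tumour, at 5.20 to 9.54 against 9.76 to 19.3 CPM, and stood at 14.5 CPM in KPH2 1.

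In metabolism, 4 of 9 further genes of serine, glycine and one-carbon synthesis were higher and 5 lower, with a median log2 fold change of −0.01. They ranged from −1.12 for Aldh1l2, a mitochondrial folate enzyme (adjusted p = 0.273 from edgeR), to 0.35 for Shmt1, the cytosolic serine hydroxymethyltransferase (adjusted p = 0.339 from edgeR). All 6 other amino acid transporters had negative values over the 7 tumours with a median of −0.39, from −1.03 for Slc1a5 to −0.17 for Slc38a2. Of the 6, 2 had an unadjusted p under 0.05 in edgeR, beside 17.8% of all tested genes. KPH2 1, left out of these values, had the highest mean log2 CPM of the 6 transporters, 7.29. This mean was 6.19 to 7.21 in KP tumours and 5.97 to 6.44 in KPH2 2 to KPH2 4. The 12 cytosolic tRNA charging and export genes had a median of −0.19, from −0.55 for Lars to 0.21 for Wars, with none at an unadjusted p under 0.05 in edgeR, DESeq2 or limma, beside the same 17.8%, 18.5% and 17.6% of all tested genes.

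Of the 9 other stress outputs of ATF4, 7 were tested, as Fgf21 and Gdf15 were under the low-count filter. They ran from −2.40 for Cth, which makes cysteine (adjusted p = 0.274 from edgeR), to 0.80 for Ddit4, an inhibitor of mTORC1 (adjusted p = 0.578 from edgeR). Ddit4 stood at 66.6, 11.6 and 28.6 CPM in KPH2 2, 3 and 4 and at 22.7 CPM in KPH2 1. KP tumours held 8.45 to 37.1 CPM of Ddit4, so only KPH2 2 lay above them. Cth varied widely within KP tumours, at 3.57, 47.0, 127 and 21.6 CPM across KP 5, 6, 7 and 8, against 7.20, 5.60 and 15.4 CPM in KPH2 2, 3 and 4 and 49.5 CPM in KPH2 1. For Cth, too, KP 5 was the lowest and KP 7 the highest KP tumour, as was seen for most of the 10 genes.

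The arms of the unfolded protein response that do not run through ATF4 were represented by 15 ER chaperones and sensors. The fitted ratio was below 1 for 13 of them and above 1 for 2, at a median log2 value of −0.15, from −0.56 for Ern1, the sensor IRE1α (adjusted p = 0.144 from edgeR), to 0.17 for Herpud1. In edgeR 3 of the 15, Hsp90b1, Dnajc3 and Ern1, had an unadjusted p under 0.05, beside 17.8% of all tested genes, and 0 passed after adjustment. These 3 were lower and without overlap over the 7 tumours, where 16.9% of all tested genes did not overlap. In KPH2 1 Hsp90b1 and Dnajc3, at 801 and 186 CPM, lay inside the KP range. Ern1, at 106 CPM in KPH2 1, lay above every other tumour. KP 7 exceeded KP 5 for 14 of the 15 genes with a median log2 ratio of 0.54, and KPH2 4 exceeded KPH2 3 for 8 of the 15 with a median of 0.06. The 7 NRF2 targets, read because Slc7a11 is one too, ran from −0.97 for Srxn1, which repairs oxidized peroxiredoxins (adjusted p = 0.131 from edgeR and 0.0270 from DESeq2), to 1.48 for Nqo1 (adjusted p = 0.219 from edgeR). Nqo1 was high mainly in KPH2 2, at 44.4, 7.4 and 12.7 CPM across KPH2 2, 3 and 4. It was at 5.19 to 9.34 CPM in KP tumours and 8.55 CPM in KPH2 1. Each Srxn1 value was lower in KPH2 2 to KPH2 4, at 46.1 to 102 CPM, than in KP tumours, at 112 to 181 CPM, and stood at 87.7 CPM in KPH2 1.

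The differences between these pairs of tumours were not limited to the 10 genes. KP 7 exceeded KP 5 for all 12 tRNA charging and export genes, all 6 other transporters and all 7 other ATF4 outputs, with median log2 ratios of 0.90, 0.93 and 1.61. KPH2 4 exceeded KPH2 3 for 11 of the 12, all 6 and all 7, with medians of 0.49, 0.35 and 1.06. NRF2 targets differed in the same direction for 6 of 7 and 7 of 7 genes. Markers of other cell types differed between the same tumours. Macrophage markers were higher in KP 7 than in KP 5 for 6 of 7 genes (median log2 ratio 0.83) and in KPH2 4 than in KPH2 3 for 5 of 7 (0.53), and endothelial markers for 5 of 5 (0.57) and 4 of 5 (0.28). The adipocyte marker tested, Fabp4, was higher in both as well. In the other direction, 20 of 20 muscle markers were lower in both pairs, mesenchymal markers were higher for only 3 of 10 and 2 of 10 genes, and T cell markers for 0 of 5 and 1 of 5. Epithelial markers were higher for 1 of 3 and 3 of 3. The same 4 libraries stand behind each of these counts, and the part of other cell types in the order of the tumours was not tested.

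**Figure D4:**
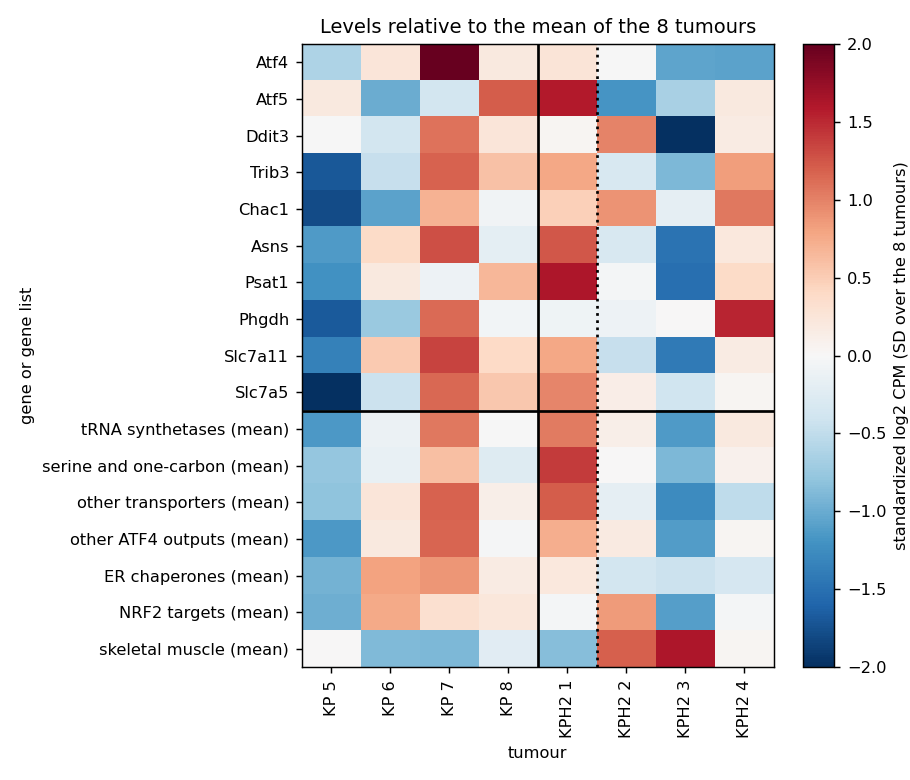
Standardized log2 CPM (colour, in SD over the 8 tumours) of the 10 genes and the mean of 7 gene lists (rows) in each tumour (columns). The solid vertical line parts KP from KPH2 tumours, and the dotted line sets KPH2 1 apart. KP 5 and KPH2 3 are low and KP 7 and KPH2 1 high for most of the genes and for the tRNA synthetase, transporter and other ATF4 output lists, and the muscle row is high in KPH2 2 and KPH2 3.

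Each of the 10 genes was compared with the standardized mean profile of the list, which includes the gene itself, by the mean absolute difference of standardized log2 CPM over the 8 tumours. Trib3 (0.218), Slc7a11 (0.283) and Slc7a5 (0.288) lay closest to it and Atf5 (0.912) farthest, with Atf4 at 0.639. Among all other tested genes, whose median difference was 1.08, the 5 nearest included Sars (0.196), Ifrd1 (0.204), Slc7a1 (0.231) and Cyb5r1 (0.249). Sars, the cytosolic seryl-tRNA synthetase, and Slc7a1, a transporter of cationic amino acids, belong to the ATF4 lists above. Sars stood at 115, 155, 297 and 202 CPM across KP 5, 6, 7 and 8, then 174, 119.7 and 194 CPM across KPH2 2, 3 and 4, and 193 CPM in KPH2 1. These likenesses rest on 8 tumours and are given as a description.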

How the data were processed

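RNA-seq was analysed for 8 tumours, 4 KP and 4 KPH2, grouped by the genotype and number in their labels. These number the tumours, not the mice, so p-values measure the spread between tumours. The authors deposited raw counts per gene, made with STAR (version 2.4) against GRCm38 and htseq-count (HTSeq 0.6.1) over RefSeq genes from unique alignments, so reads shared with pseudogene copies were left out. The strand setting of the counting is not given in the sources used here. The authors also deposited log2 values from the regularized log transformation (rlog) of DESeq2 1.6 for 7 and for 8 tumours, in which libraries are scaled and low genes shrunk toward their mean.

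Counts of the 4 KP tumours and of KPH2 2, 3 and 4 entered edgeR 4.0.16 in R 4.3.3, with TMM scaling, its low-count filter (minimum count 10, minimum total count 15), robust dispersions and the quasi-likelihood test, without covariates. The 14867 tested genes entered the Benjamini-Hochberg adjustment together, and 0.05 was the threshold. All 10 genes passed the filter. The edgeR intervals use 5 residual degrees of freedom. CPM were scaled by TMM over all 8 tumours, and log2 CPM used a prior count of 2. DESeq2 1.42.0 and limma 3.58.1 were alternatives. Library totals ran from 6463221 to 13155510, and no pair of libraries agreed within counting noise (smallest chi-square 28.3 per degree of freedom). The tests were tried on simulated counts. Members and gene lists were chosen with earlier results of these data known. Genes named outside the 10 are, in each list, those with the highest and lowest log2 fold change or past the threshold, the 5 nearest in profile, and Epas1. Hsp90b1, Dnajc3 and the marker genes were named after their values were seen. The limma fit over rlog values of 8 tumours was chosen after seeing the data. Gene positions and promoters came from RefSeq for GRCm38.p6, and transcript lengths from GENCODE M21. One allele shared by both groups and 1 of the 5 genes nearest in profile are not reported here.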

Additional observations from a re-analysis of the deposited data

Results flagged for a closer look

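In groups of 4 tumours, a value was marked when its gap to the nearest tumour as a share of the group's range exceeded Dixon's 95% critical value, which chance gives in about 1 of 20 groups, and 22 groups were examined. Phgdh in KPH2 4, at 148.5 CPM, stood apart from the other KPH2 tumours, KPH2 1 included, the nearest of which was at 92.2 CPM. Epas1 in KP 5, at 59.2 CPM, stood below the other KP tumours, the nearest of which was at 83.2 CPM.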

How the results depend on the processing

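No paired analysis was possible because KP tumours are numbered 5 to 8 and KPH2 tumours 1 to 4, so the groups share no number. Under each of the 17 alternatives 0 of the 10 genes passed an adjusted p of 0.05. Of 170 log2 fold changes under these alternatives 23 had the other sign from the reported value, over 7 genes. Atf4, Chac1 and Phgdh kept their sign under all 17, but Phgdh, 0.34 over the 7 tumours, was 0.058 without KPH2 4, 0.17 without KP 5 and 0.60 without KP 7. Atf4, −0.49, ran from −0.64 (without KPH2 2) to −0.25 (without KP 7) with a tumour left out and was −0.17 with the muscle covariate. Atf5, −0.26, ran from −0.43 (without KPH2 4) to −0.065 (without KP 8). Slc7a11, −0.92, ran from −1.33 (without KPH2 4) to −0.49 (without KP 7) with a tumour left out, Chac1, 0.91, from 0.63 (without KP 5) to 1.39 (without KP 7), and Asns, −0.52, from −0.82 (without KPH2 4) to −0.15 (without KP 7). The edgeR unadjusted p fell under 0.05 without KP 5 for Atf4 (−0.61, edgeR unadjusted p = 0.0339, adjusted p = 0.212) and Slc7a11 (edgeR unadjusted p = 0.0214, adjusted p = 0.171), and without KP 7 for Chac1 (edgeR unadjusted p = 0.0225, adjusted p = 0.215). The muscle covariate gave Ddit3 0.35, Trib3 1.30, Asns 0.95, Psat1 0.41, Slc7a11 0.86 and Slc7a5 0.54. All 8 tumours gave Atf5 0.020, Trib3 0.023, Psat1 0.15 and Slc7a5 0.098, limma on rlog values gave Slc7a5 0.033 over 7 tumours, and over 8 it gave Trib3 0.13, Psat1 0.082 and Slc7a5 0.18. With each tumour left out in turn, Ddit3 ran from −0.61 to 0.19 and was positive without KP 7 (0.013) or KPH2 3 (0.19). Trib3 ran from −0.75 to 0.27, positive without KP 7 (0.27) or KPH2 3 (0.12). Psat1 ran from −0.29 to 0.096, positive without KP 8 (0.0073) or KPH2 3 (0.096). Slc7a5 ran from −0.35 to 0.21, positive without KP 7 (0.21), KP 8 (0.013) or KPH2 3 (4.8e-04). The number of all genes called, 292, was 1 with all 8 tumours, 3 with the muscle covariate, which leaves fewer degrees of freedom, 1179 and 1164 in DESeq2 without and with a prior, 14 in limma over 8 tumours, and 55 (without KPH2 2) to 349 (without KP 5) with a tumour left out. It was 73 without KP 7, 130 without KP 6 and without KP 8, 159 without KPH2 3 and 153 without KPH2 4. The cause of these shifts was not tested.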

Other observations

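Keratin genes, which mark epithelium, differed between the tumours. Krt8 was counted at 0.707 to 2.01 CPM in KP tumours and at 262.5, 6.91 and 282.5 CPM in KPH2 2, 3 and 4, with 1.44 CPM in KPH2 1 (log2 fold change 7.28, adjusted p = 0.0299 from edgeR). Krt18 was counted at 0.445 to 4.53 CPM in KP tumours and at 202, 40.8 and 228 CPM in KPH2 2, 3 and 4, with 56.2 CPM in KPH2 1 (log2 fold change 5.73, adjusted p = 0.0183 from edgeR). Cdh1, the other epithelial marker tested, stood at a log2 fold change of 2.37 with groups that overlapped (adjusted p = 0.13 from edgeR). It was at 0.16 CPM in KPH2 1. Epcam and Krt19 were under the low-count filter. Of all tested genes 1.96% passed in edgeR. Pdgfra, a receptor of mesenchymal cells, was at 720.5 to 1494 CPM in KP tumours and at 224, 273.6 and 239 CPM in KPH2 2, 3 and 4, with 639 CPM in KPH2 1 (log2 fold change −2.02, adjusted p = 0.0183 from edgeR). It was the only 1 of the 10 mesenchymal markers to pass in edgeR, and the 10 had a median log2 fold change of −0.28, with 8 lower and 2 higher. Over the remaining marker lists, 0 of 7 macrophage, 0 of 5 endothelial, 0 of 1 tested adipocyte and 0 of 5 T cell genes passed an adjusted p of 0.05 in edgeR, with 4, 2, 1 and 0 at an unadjusted p under 0.05, all lower in KPH2 tumours, beside 1.96% of all tested genes after adjustment and 17.8% before it. DESeq2 called 1 of the 7 macrophage and 2 of the 5 endothelial genes, beside 7.95% of all genes, and 0 of the adipocyte and T cell genes.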
